A study of Mus musculus with 8 samples.

Results

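The first 4 days of PU.1 restoration were covered by 2 ATAC-seq libraries of AML246, a line of acute myeloid leukaemia from the mouse, taken before doxycycline (Dox) and after 4 days on it. ATAC-seq marks open chromatin, because a transposase inserts sequencing adapters where DNA is accessible. For each library a list of scored peak summits was deposited. Summits on the autosomes, X and Y were widened by 150 bp on either side, and overlaps across both lists were merged into 43702 regions, compared with 68753 regions when all 8 libraries of the series were merged. A region is called open in a library that holds a summit in it, so "not open" means not called and not measured as closed. Of the 43702 regions, 8990 (20.6%, 95% interval 20.2 to 21.0) were open at day 0 only, 8005 (18.3%, 17.96 to 18.7) at day 4 only, and 26707 (61.1%, 60.7 to 61.6) at both.

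The day-0 library was labelled untreated and the day-4 library 4 days Dox, both from total viable cells sorted by FACS. All cells grew in IMDM with fetal calf serum and IL-3, Dox was given at 0.1 µg/mL from day 0 to day 12 and then withdrawn, and each library was made from 50000 cells. The labels call the time on Dox PU.1 restoration and the time after it PU.1 knockdown. The sources used here do not give the read depth, the construct that ties PU.1 to Dox, or whether the line is 1 clone. The other 6 libraries, which took no part in sorting the regions, came from day 8 and day 12 on Dox, from a CD11b-high sort at day 12, and from 4, 8 and 12 days off Dox. Each group was 1 library, so no replicate error and no test between conditions could be given. The intervals are exact Clopper-Pearson 95% intervals for counting error alone, and regions next to each other may depend on each other.

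PU.1, encoded by Spi1, is an ETS-family transcription factor that is needed for myeloid and B cell development and binds purine-rich DNA around a GGAA core. In myeloid progenitors it works with C/EBP, RUNX and AP-1 factors, and GATA factors oppose it. Reduced PU.1 activity is a known route to acute myeloid leukaemia in mice.

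At gene starts, the windows with a region open at day 4 only held 1 spelling of the PU.1 motif more often than the other windows, 8.24% against 2.30% of day-0-only windows, while a spelling shifted by 1 base differed less (7.65% against 5.21%). The first search used GAGGAAGT and its reverse complement ACTTCCTC (both strands, as for every motif) in 32817 RefSeq promoter windows of GRCm38.p6, the build also called mm10, each from 250 bases before to 50 bases after a start. Such a match describes letters in a window and is not a binding site. The 6 day-4-only windows printed first show where these letters fall, marked in capitals, at genes of myeloid receptors, signalling and granules; Cd300lf and Mmp8 were named by rule, and Grb2, Cd53, Tlr9 and Gpr55 were picked after their matches were seen. These 6 are not typical of their class, most of whose windows lack the letters, so the day-4-only window of Cd34 follows as an example without them. The last 3 windows are day-0-only: Evi2b, picked after its match was seen, has the letters, and those of the granule genes Ctsg and Nkg7 do not and are in lower case throughout. Of the genes named by rule with an exclusive region at a window, the letters were found for Cd300lf and Mmp8 and not for Fcgr3, Clec4d, Gata2, Cd34 and Rsad2 on the day-4-only side, and for none of Nkg7, Ctsg, Itgb5, Il5ra, Zeb2, Greb1 and Hdc on the day-0-only side. Each window is written on its gene's strand.
Cd300lf: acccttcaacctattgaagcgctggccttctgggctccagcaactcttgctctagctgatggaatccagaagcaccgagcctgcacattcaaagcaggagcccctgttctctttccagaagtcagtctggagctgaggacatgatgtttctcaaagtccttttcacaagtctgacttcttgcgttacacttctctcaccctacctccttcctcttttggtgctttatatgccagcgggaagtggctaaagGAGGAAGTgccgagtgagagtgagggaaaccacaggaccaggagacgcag
Grb2: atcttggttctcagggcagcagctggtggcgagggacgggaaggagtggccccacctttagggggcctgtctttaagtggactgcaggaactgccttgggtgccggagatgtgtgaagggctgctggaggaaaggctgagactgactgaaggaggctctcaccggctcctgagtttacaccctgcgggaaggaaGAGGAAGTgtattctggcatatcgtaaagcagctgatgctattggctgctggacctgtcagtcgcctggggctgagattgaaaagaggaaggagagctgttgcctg
Cd53: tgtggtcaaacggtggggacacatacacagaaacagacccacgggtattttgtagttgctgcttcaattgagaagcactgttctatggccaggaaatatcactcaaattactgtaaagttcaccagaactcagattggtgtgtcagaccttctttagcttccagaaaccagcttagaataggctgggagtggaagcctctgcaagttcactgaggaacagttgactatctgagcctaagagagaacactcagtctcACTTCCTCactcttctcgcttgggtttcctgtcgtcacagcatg
Tlr9: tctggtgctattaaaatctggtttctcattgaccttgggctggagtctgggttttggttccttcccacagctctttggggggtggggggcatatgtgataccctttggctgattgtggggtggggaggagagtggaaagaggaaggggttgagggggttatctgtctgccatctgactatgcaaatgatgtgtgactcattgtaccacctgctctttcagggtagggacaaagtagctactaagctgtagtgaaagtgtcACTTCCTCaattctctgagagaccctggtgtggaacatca
Mmp8: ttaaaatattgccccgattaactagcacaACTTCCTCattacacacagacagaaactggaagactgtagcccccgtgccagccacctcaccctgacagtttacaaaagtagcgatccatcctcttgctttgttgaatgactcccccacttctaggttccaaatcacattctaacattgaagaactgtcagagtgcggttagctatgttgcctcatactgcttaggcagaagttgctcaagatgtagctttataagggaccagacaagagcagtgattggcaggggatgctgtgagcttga
Gpr55: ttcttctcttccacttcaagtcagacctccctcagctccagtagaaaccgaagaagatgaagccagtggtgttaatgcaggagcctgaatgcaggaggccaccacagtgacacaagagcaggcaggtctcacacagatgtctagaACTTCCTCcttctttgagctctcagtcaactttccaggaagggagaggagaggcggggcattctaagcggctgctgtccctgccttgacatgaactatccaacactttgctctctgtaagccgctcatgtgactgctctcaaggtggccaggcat
Cd34: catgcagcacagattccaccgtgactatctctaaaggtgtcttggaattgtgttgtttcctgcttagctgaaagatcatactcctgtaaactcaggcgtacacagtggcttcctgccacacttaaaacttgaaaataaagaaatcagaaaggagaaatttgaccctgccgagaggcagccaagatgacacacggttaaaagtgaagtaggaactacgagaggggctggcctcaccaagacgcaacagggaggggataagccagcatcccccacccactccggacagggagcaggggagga
Evi2b: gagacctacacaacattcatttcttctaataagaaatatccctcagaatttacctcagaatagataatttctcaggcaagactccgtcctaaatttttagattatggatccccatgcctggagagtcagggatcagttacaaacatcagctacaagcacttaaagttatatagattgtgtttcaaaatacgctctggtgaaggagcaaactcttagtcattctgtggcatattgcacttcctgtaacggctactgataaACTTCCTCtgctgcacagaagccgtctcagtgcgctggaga
Ctsg: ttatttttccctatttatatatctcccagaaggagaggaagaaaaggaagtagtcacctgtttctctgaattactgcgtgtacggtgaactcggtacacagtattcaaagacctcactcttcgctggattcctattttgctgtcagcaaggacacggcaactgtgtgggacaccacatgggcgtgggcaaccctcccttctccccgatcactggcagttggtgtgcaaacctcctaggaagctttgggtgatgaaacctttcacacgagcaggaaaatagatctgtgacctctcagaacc
Nkg7: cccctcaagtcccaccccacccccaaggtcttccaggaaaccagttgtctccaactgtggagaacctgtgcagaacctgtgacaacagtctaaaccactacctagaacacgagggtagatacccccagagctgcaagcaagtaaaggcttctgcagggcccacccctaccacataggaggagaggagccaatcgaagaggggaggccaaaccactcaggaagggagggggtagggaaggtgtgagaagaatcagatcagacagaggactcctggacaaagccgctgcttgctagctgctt

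The Cd300lf window, of an inhibitory receptor of myeloid cells, lay at chr11:115133943-115134242 on the minus strand, around a RefSeq start inside the gene's span, and its match began at the start base itself. The region over it (115133839 to 115134139) scored 16.98 at day 4, and in the other lists 38.3 at day 8, 17.1 at day 12, 22.8 in CD11b-high cells, 30.5 at 4 days off, 10.8 at 8 days off and 7.63 at 12 days off. The score is the −log10 of a p or q value of the peak in its own list, given by the authors' peak caller; it moves with depth, so values from different lists are shown side by side but not compared. The Cd300lf region was absent from the day-0 list alone, with the nearest day-0 summit 20126 bp away. Grb2, an adaptor that links receptors to Ras, had its window at chr11:115699485-115699784 on the minus strand and a day-4 score of 36.5, the match beginning at position -56 from the start. Its region was open in every other library except day 0 and 12 days off. The window of Cd53, a leukocyte tetraspanin, was chr3:106790100-106790399 on the minus strand, with a score of 18.8 and a day-0 summit 958 bp away. Tlr9, the endosomal receptor for unmethylated CpG DNA, had a window at chr9:106222348-106222647 on the plus strand. Its region scored 9.90 at day 4, 11.8 at day 8, 11.1 at day 12 and 6.55 in CD11b-high cells, and it was in none of the lists off Dox.

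Mmp8 encodes the neutrophil collagenase, and its window was chr9:7558179-7558478 on the plus strand. The match stood at position -221, and the region over the window scored 9.94 at day 4 and was open in all 6 other libraries. Gpr55, a lipid-sensing G protein-coupled receptor, had its window at chr1:85961006-85961305 on the minus strand, with a score of 11.6 at day 4 and calls in all 6 other libraries. The Cd34 window was chr1:194938571-194938870 on the plus strand, under a weak day-4 call (3.73). On the day-0 side, Evi2b, a membrane protein gene of blood cells, had its window at chr11:79523713-79524012 on the minus strand, the match beginning at position 9, and its region scored 7.92. Ctsg encodes cathepsin G, a protease of primary granules, with its window at chr14:56102525-56102824 on the minus strand. The Ctsg region scored 8.38 at day 0 and was open in every library except day 4 and 12 days off. The window of Nkg7, a granule membrane protein of cytotoxic cells, was chr7:43436888-43437187 on the plus strand. Its region scored 11.5 at day 0 and was open at day 8 and at 4 and 8 days off.

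Over all promoter windows, the PU.1 letters were present in 28 of 340 day-4-only windows (8.24%, 5.54 to 11.7), 15 of 652 day-0-only windows (2.30%, 1.29 to 3.77), 304 of 9816 shared windows (3.10%) and 3.20% of all 32817. Windows of genes with several starts can overlap, and the 28 and 15 windows were covered by 28 and 13 different regions. The share was 13.6% (24 of 177, 8.88 to 19.5) where the day-4-only region had no day-0 summit within 1 kb, and 2.11% (9 of 427, 0.968 to 3.96) in the same selection of day-0-only windows. It was also 13.6% (21 of 154) for day-4-only windows whose region was open at both day 8 and day 12, and 3.76% (7 of 186) for the rest. Base composition moved with class: the median GC content was 55.8% in day-4-only, 60.7% in day-0-only and 62.3% in shared windows. Below 50% GC the shares were 12.4% of 97 day-4-only and 2.08% of 96 day-0-only windows, and from 50 to 60% GC they were 14.8% of 108 and 1.94% of 206. Above that, 0 of 135 day-4-only windows held the letters (interval 0 to 2.70%), against 2.57% of 350 day-0-only windows. The nearest day-4 summit lay a median of 33.0 bp from the middle of the match in the 28 day-4-only windows and 62.5 bp in the 304 shared windows. In the 15 day-0-only windows the nearest day-0 summit lay a median of 67.5 bp away. The shares within 50 bp were 60.7% (40.6 to 78.5), 43.8% (38.1 to 49.5) and 46.7% (21.3 to 73.4), and these intervals overlap.

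Apart from those printed, the 28 windows included Cd72, an inhibitory receptor of B cells, Tlr1, a receptor for bacterial lipopeptides, Trex1, a DNA exonuclease, and Pram1, an adaptor of myeloid cells. They also included Pirb, an inhibitory immunoglobulin-like receptor, and Gm14548, whose region scored 46.5 at day 4; both belong to a family of similar genes, so reads there could be misplaced. The shifted spelling AGGAAGTG was in 7.65% (5.06 to 11.0) of day-4-only, 5.21% (3.64 to 7.21) of day-0-only and 4.24% of shared windows, and in 4.07% of all, and the intervals of the exclusive classes overlap. The C/EBP letters TTGCNNAA were in 14.1% of day-4-only and 9.20% of day-0-only windows, the RUNX letters TGTGGT in 20.6% and 15.0% (12.3% of shared windows), the AP-1 letters TGANTCA in 7.06% and 5.98%, and the GATA letters AGATAA in 7.65% and 7.06%. CCGGAAGT, a form of the ETS motif common at housekeeping promoters that was added after the data were seen, was in 6.76% of day-4-only, 2.30% of day-0-only and 10.2% of shared windows. Its shared windows thus held it most often. The intervals of the exclusive classes were separate for GAGGAAGT and CCGGAAGT, and overlapped for each of the other motifs. All 3 ETS spellings hold the letters GGAAGT.

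**Figure D1:**
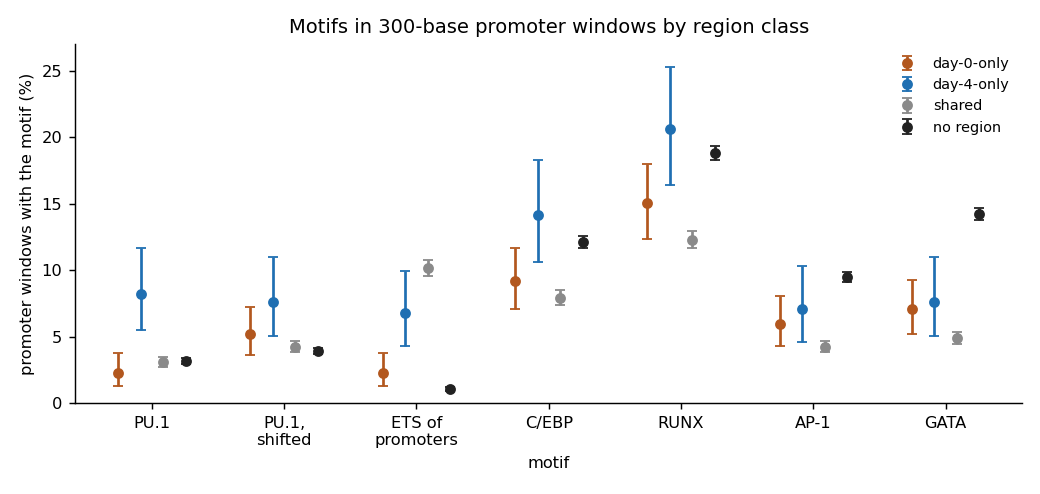
Share of 300-base promoter windows with each motif (y axis, %), by the class of the region over the window (colours; black, no region at day 0 or day 4); bars are 95% Clopper-Pearson intervals. For PU.1 the day-4-only share is 8.24% and the other 3 classes lie between 2.30% and 3.20%; for the shifted spelling the exclusive classes overlap.

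Exclusive regions were mostly weak calls. The score had a median of 6.24 in day-0-only and 6.44 in day-4-only regions, while shared regions had medians of 16.2 at day 0 and 17.3 at day 4. In shared regions the summits of the 2 lists lay a median of 19 bp apart, and 74.2% were within 50 bp. Scores of 20 or more occurred in 291 day-0-only and 417 day-4-only regions, but 249 and 274 of these had a summit of the other list within 1 kb. Of all exclusive regions, 7347 day-0-only and 6608 day-4-only had no summit of the other list that close.

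With the 35018 top-score summits of each list, 19.3% of regions (8286) were day-0-only and 19.3% (8279) day-4-only, so the surplus of day-0-only regions in the full lists was absent at equal numbers. With the top 10000 summits, 12.9% (1487) fell on each side, but 1215 of the day-0-only and 1163 of the day-4-only regions held a summit of the other full list. Only 18 and 44 of them had none within 1 kb. With the top 5000 those numbers were 0 and 2. Nearly every strong peak of either day was therefore called on the other day or had a summit close by.

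**Figure D2:**
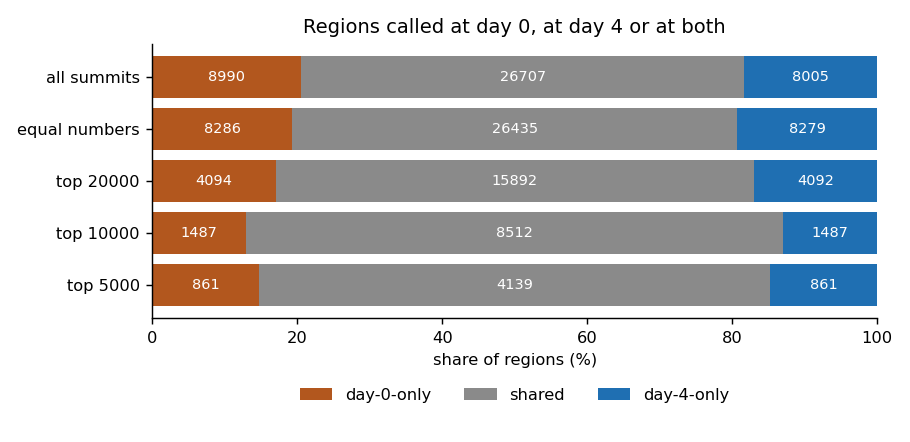
Share of regions (x axis, %) open at day 0 only, at both days or at day 4 only, for the full lists and for equal numbers of top-score summits; numbers in the bars are regions. Exclusive shares are near equal on both sides at equal numbers and are lowest, 12.9% each, with the top 10000 summits.

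Exclusive regions lay away from gene ends. Within 1 kb of a gene end lay 14.4% (13.7 to 15.1) of day-0-only, 11.5% (10.8 to 12.2) of day-4-only and 35.5% (34.9 to 36.0) of shared regions. Much of this went with score: at scores of 5 to 10 the shares were 11.9%, 9.23% and 12.5%. Shared regions were sorted here by their day-4 score, and day-0-only regions by their day-0 score. Inside genes lay 44.2% of day-0-only and 47.4% of day-4-only regions.

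The 6 libraries that did not sort the regions gave an independent readout. Day-4-only regions were open more often in the later Dox libraries: 62.6% of them at day 8, 44.7% at day 12 and 46.2% in CD11b-high cells, against 45.7%, 26.1% and 27.5% of day-0-only regions. Off Dox the order was the opposite, with 52.5%, 35.6% and 18.4% of day-4-only regions open at 4, 8 and 12 days off, against 62.6%, 56.2% and 37.5% of day-0-only regions. Shared regions were open in 79.3% to 92.0% of cases in every library. On the autosomes, X and Y these lists held 46965 summits at day 8, 35113 at day 12 and 36215 in CD11b-high cells. At 4, 8 and 12 days off they held 51060, 41427 and 31867. A longer list can hold more regions of every class, so classes are compared within a library and not between libraries. A day-4-only region was open in all 3 later Dox libraries in 2639 cases (33.0%, 31.9 to 34.0), compared with 1249 day-0-only regions (13.9%, 13.2 to 14.6). Regions open in none of the 3 later Dox libraries but in all 3 off Dox numbered 492 among day-0-only and 37 among day-4-only regions, while 24 and 551 showed the reverse pattern. In none of the other 6 libraries were 1651 day-0-only (18.4%) and 1549 day-4-only regions (19.4%) called.

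At day 12 and at 12 days off the separation was wider among stronger calls with no summit of the other list within 1 kb, a selection made after the data were seen. At scores of 10 to 20, 70.2% (67.3 to 72.9) of 1070 day-4-only regions were open at day 12 and 26.9% (24.3 to 29.7) at 12 days off. Of 940 such day-0-only regions, 39.9% (36.7 to 43.1) were open at day 12 and 63.2% (60.02 to 66.3) at 12 days off. At scores of 20 or more, 94.4% of 143 day-4-only regions were open at day 12 and 40.6% at 12 days off, and 59.5% and 95.2% of 42 day-0-only regions. At day 8 and 4 days off these strongest classes lay no further apart than all regions did, with 98.6% and 86.0% of day-4-only and 83.3% and 95.2% of day-0-only regions open. With the top 10000 summits of each list the difference at day 8 and day 12 was absent, at -0.403 and -0.605 percentage points, in a set whose exclusive regions mostly held a summit of the other full list.

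**Figure D3:**
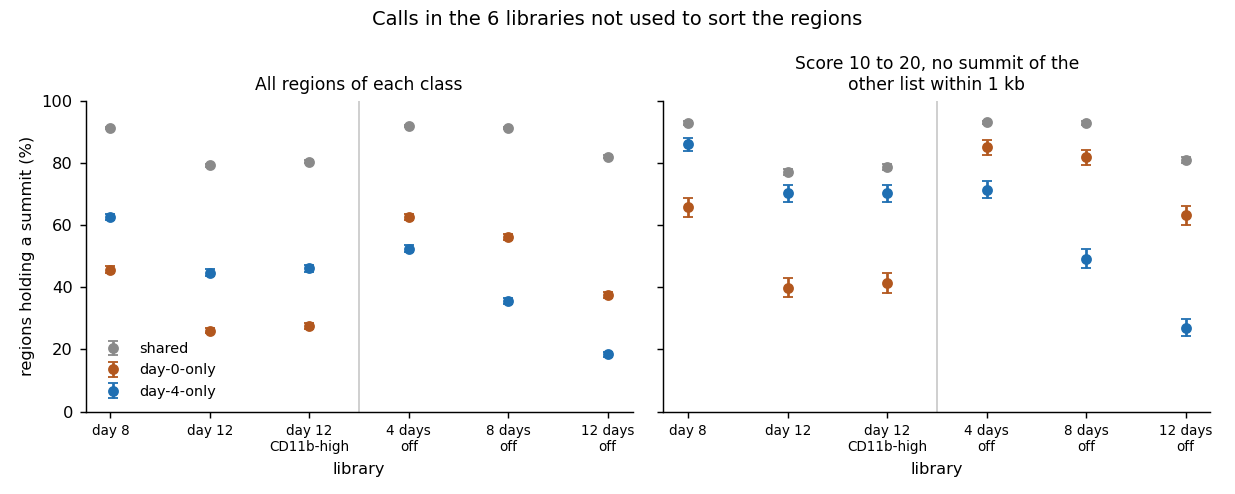
Share of regions that hold a summit (y axis, %) in each of the 6 libraries not used to sort them (x axis; on Dox left of the line, off Dox right of it), by class, with 95% Clopper-Pearson intervals. Blue points (day-4-only) lie above brown (day-0-only) on Dox and below them off Dox in both panels.

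Each region went to the closest protein-coding gene up to 100 kb away, which placed 41476 of the 43702. Of these, 20.1% were day-0-only and 18.1% day-4-only, and 14808 genes had at least 1 region. The net of a gene, day-4-only minus day-0-only regions, had a median of 0, with 3258 genes above and 3891 below. Of 19 gene lists, 10 had more day-4-only and 6 more day-0-only regions, led by monocyte and macrophage genes at the day-4 end and B cell genes at the day-0 end. The lists' regions are few and their intervals wide, and the lists overlap.

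Monocyte and macrophage genes held 26 day-4-only (38.8%, 27.1 to 51.5) and 8 day-0-only regions (11.9%, 5.30 to 22.2) among 67, with a median net of 1 over the 19 genes that had a region. Built from summits with a score of at least 10, the list's net was 2 in place of 18. Of the 26 day-4-only regions, 22 were open at day 8, 16 at day 12 and 9 at 12 days off, and of the 8 day-0-only regions 1, 1 and 2. Over all day-4-only regions the shares in these 3 libraries were 62.6%, 44.7% and 18.4%. Over all day-0-only regions they were 45.7%, 26.1% and 37.5%. Ccr2, the receptor that draws monocytes to inflamed tissue, had 3 day-4-only regions, of which that 3638 bp outside the gene scored 15.2 at day 4, 29.03 at day 8, 7.68 at day 12 and 19.3 in CD11b-high cells. Gpnmb, a lysosomal glycoprotein of macrophages, had 4 day-4-only regions; all 4 were open at 4 days off, where the region 14421 bp after its start scored 39.4. Cd300lf had 2 day-4-only regions and no other. Csf1r, the receptor for macrophage colony-stimulating factor, had 1 region, at a score of 2.86. The net was above 0 for 11 genes of this list and below 0 for 1, Ctss, with 1 day-0-only region (6.90) and no other. Ly86 had 3 day-4-only and 3 day-0-only regions, and Sirpa 2 and 2.

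Genes of immune receptor signalling held 25 day-4-only and 12 day-0-only regions among 82, and none of their 14 genes with a region had a negative net. Syk, the kinase that binds phosphorylated receptor tails, had 6 day-4-only and 3 day-0-only regions. The strongest day-4-only region of Syk lay 9967 bp outside the gene, scored 19.3 at day 4, 22.1 at day 8, 8.71 at day 12 and 16.7 in CD11b-high cells, and was called at 4 days off (4.72) but not later. The Src-family kinase Lyn had 3 and 1, and the adaptor Lcp2 4 and 2. Known PU.1 target genes held 28 and 16 among 80. Their members included Ptprc, the CD45 phosphatase of all leukocytes, with 4 and 1, and the integrin gene Itgam, which encodes CD11b, with 2 and 0, at scores of 4.23 and 5.50. The net was above 0 for 11 genes of this list and below 0 for 3. These 3 were Ncf1, a subunit of the phagocyte oxidase, with 0 and 3, Fcgr3 with 1 and 3, and Ncf4 with 1 and 2. At a score of at least 10 the nets of Ncf1, Fcgr3 and Ncf4 were 0, 1 and 2, and that of the list was 7 in place of 12. Of the 3 day-0-only regions of Ncf1, 1 lay 472 bp from a day-4 summit.

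Neutrophil and granulocyte genes held 17 day-4-only and 9 day-0-only regions among 44, a net of 8 that was 3 at a score of at least 10. Mmp8 had a second day-4-only region 9154 bp after its start, which scored 23.8 at day 4, 29.2 at day 8, 25.4 at day 12, 24.7 in CD11b-high cells, 24.2 at 4 days off and 13.3 at 8 days off, and was not called at 12 days off. Ctsg had 3 day-0-only regions and none at day 4. Inflammatory and cytokine genes held 24 and 14 among 94, a net of 10, which was 4 with genes up to 20 kb away. Il1b, the precursor of interleukin-1 beta, had 3 regions, all day-4-only, and the region 2345 bp outside the gene scored 18.4 at day 4, 16.9 at day 8, 5.69 at day 12, 4.24 in CD11b-high cells and, 4 days after withdrawal, 4.26. The nearest day-0 summits lay 75997 to 81012 bp from these 3 regions. Eosinophil genes held 8 and 4 among 18. Alox15, a lipoxygenase, had 4 and 0, while Il5ra, Epx and Ear1 each had 0 and 1. The net was above 0 for 3 genes of this list and below 0 for 3, with a median of 0.

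Myeloid transcription factors held 33 day-4-only and 18 day-0-only regions among 133, a net of 15. The net was 18 at a score of at least 10, where other regions are exclusive and the nets of members differ, and 8 with genes up to 20 kb away. Etv6, an ETS-family repressor, had 6 and 1. The Etv6 region at chr6:134065117-134065417, inside the gene, scored 18.8 at day 4, 30.9 at day 8, 20.1 at day 12 and 16.5 in CD11b-high cells, then 6.55 and 3.14 at 4 and 8 days off, and was not called at 12 days off. Cebpa and Cebpb, whose C/EBP proteins drive granulocyte and monocyte genes, each had 2 and 0, and Runx1 2 and 4; at a score of at least 10 the nets of Cebpa and Cebpb were 0 and that of Runx1 2. Spi1 itself had 3 shared regions and 1 day-4-only region, 1154 bp outside the gene at chr2:91081070-91081370, which scored 6.53. Irf8, a factor of monocyte fate, had 2 and 1, at 64634 to 88224 bp from the gene.

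Lymphoid and erythroid lists had more day-0-only regions, while megakaryocyte genes had 8 day-4-only and 6 day-0-only among 27. B cell genes held 3 day-4-only and 11 day-0-only regions among 25 (44.0%, 24.4 to 65.1), with Bach2, a repressor of plasma cell fate, at 1 and 4, and Ebf1, a B lineage factor, at 1 and 3. At a score of at least 10 the net of this list was -1, in place of -8. Cd79a, Cd79b and Ms4a1 had no region on either day. T and NK cell genes held 2 and 8 among 24, with 0 and 2 each at Tcf7 and Bcl11b, 1 and 2 at Thy1, and 1 and 0 at Klrd1. Erythroid genes held 2 and 8 among 22 (36.4% day-0-only, 17.2 to 59.3). Of their 8 day-0-only regions, 5, 6 and 4 were open at 4, 8 and 12 days off, with 2 at day 8 and 0 at day 12. Over all day-0-only regions the shares were 62.6%, 56.2% and 37.5% off Dox, 45.7% at day 8 and 26.1% at day 12. A difference between these 8 regions and all day-0-only regions was not tested. The net was below 0 for 6 erythroid genes and above 0 for 1. Among the 6 were Klf1 and Nfe2, factors of red cell genes, Epor, the erythropoietin receptor, and Zfpm1, a GATA cofactor with 1 and 3. The gene above 0 was Hbb-bt, with 1 and 0, at a score of 7.57. At a score of at least 10 the erythroid net was 1, with the opposite sign. Cell cycle genes held 10 and 16 among 81, where the day-0-only share (19.8%) was near that of all assigned regions (20.1%) and the day-4-only share (12.3%, 6.08 to 21.5) had an interval that takes in 18.1%. Lists with equal or near-equal counts were oxidase, phagosome and lysosome genes (19 and 19), dendritic cell genes (7 and 7), housekeeping genes (8 and 9) and genes of non-blood tissues (3 and 3).

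**Figure D4:**
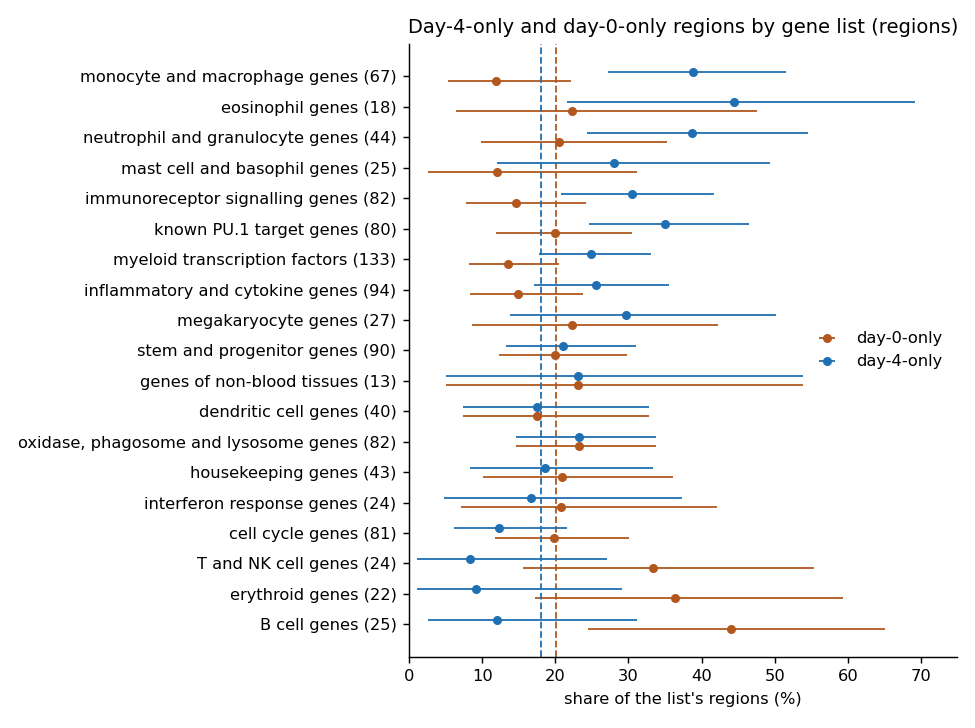
Share of each list's regions (x axis, %; number of regions in parentheses) that were day-4-only (blue) or day-0-only (brown), with 95% Clopper-Pearson intervals; dashed lines are the shares over all assigned regions, 18.1% and 20.1%. Monocyte and macrophage genes are at the top and B cell genes at the bottom.

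Stem and progenitor genes were split, with 19 day-4-only and 18 day-0-only regions among 90. Cd34, a surface sialomucin of progenitors, had 4 and 0. The Cd34 region 4901 bp after the start scored 10.3 at day 4 and 28.7 at day 8, 23.4 at day 12, 25.7 in CD11b-high cells, and 16.5, 11.0 and 10.4 at 4, 8 and 12 days off. It was thus called in every library except day 0, as was the region 1059 bp outside the gene. Kit, the stem cell factor receptor, had 1 day-4-only region inside the gene (9.35) beside 2 shared regions. On the other side were Cd93 with 1 and 4 and Ikzf2 with 0 and 3. Myc had 5 shared regions and no exclusive one, Myb 1 and 1 beside 6 shared, and Gata2 1 and 1 beside 3 shared.

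Among all genes, Asap1, an Arf GTPase-activating protein, had the highest net, with 10 day-4-only, 3 day-0-only and 9 shared regions at chromosome 15. Of the 10, 8 were open at day 8, 6 at day 12 and 8 in CD11b-high cells, but 3 at 12 days off. The strongest, at chr15:64113209-64113509, scored 24.2 at day 4, then 15.7, 10.1 and 16.4 in the later Dox libraries (day 8, day 12, CD11b-high) and 11.9 at 4 days off, and lay 1930 bp from a day-0 summit. It was followed by Cd69, an early activation receptor (6 and 0), the transcription factor gene Creb5 (7 and 1), Ctif (7 and 1), the docking protein gene Nedd9 (7 and 1), the phosphodiesterase gene Pde4b (7 and 1) and Pmfbp1 (6 and 0). Creb5 and Ctif had nets of -2 and Cd69 of 0 at a score of at least 10, while Asap1, Nedd9, Etv6 and Phactr2 kept nets of 3, 3, 4 and 3. Over all genes, 15 had a net of 5 or more and 18 of -5 or less.

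Tead1, a DNA-binding partner of the Hippo pathway's YAP, had the lowest net, with 8 day-0-only regions, 1 shared region near its gene end and no day-4-only region. The Tead1 region 11764 bp outside the gene scored 24.0 at day 0, 13.5 at day 8 and between 11.4 and 12.2 in the 3 libraries off Dox, and was not called at day 12 or in CD11b-high cells. The region at chr7:112760814-112761114 scored 14.3 at day 0 and was called in all 6 other libraries. Of the 8 regions, 3 were called at day 0 alone, as were 18.4% of all day-0-only regions. The other 5 recurred in at least 1 library other than day 4. Nfia and Fry each had 1 and 7, and Tle4, a Groucho-family corepressor, 0 and 5. At a score of at least 10 the nets were -2 for Tead1, -1 for Nfia and Tle4, and 0 for Fry. Of the 10 genes with the lowest net, only Sorcs2 kept its net, at -5, while those of Lclat1 and St6galnac3 changed sign to 1. The Tle4 region 61750 bp before its start scored 15.6 at day 0, and 14.2, 6.37, 17.6, 35.5, 36.2 and 21.6 at day 8, day 12, in CD11b-high cells and at 4, 8 and 12 days off.

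**Figure D5:**
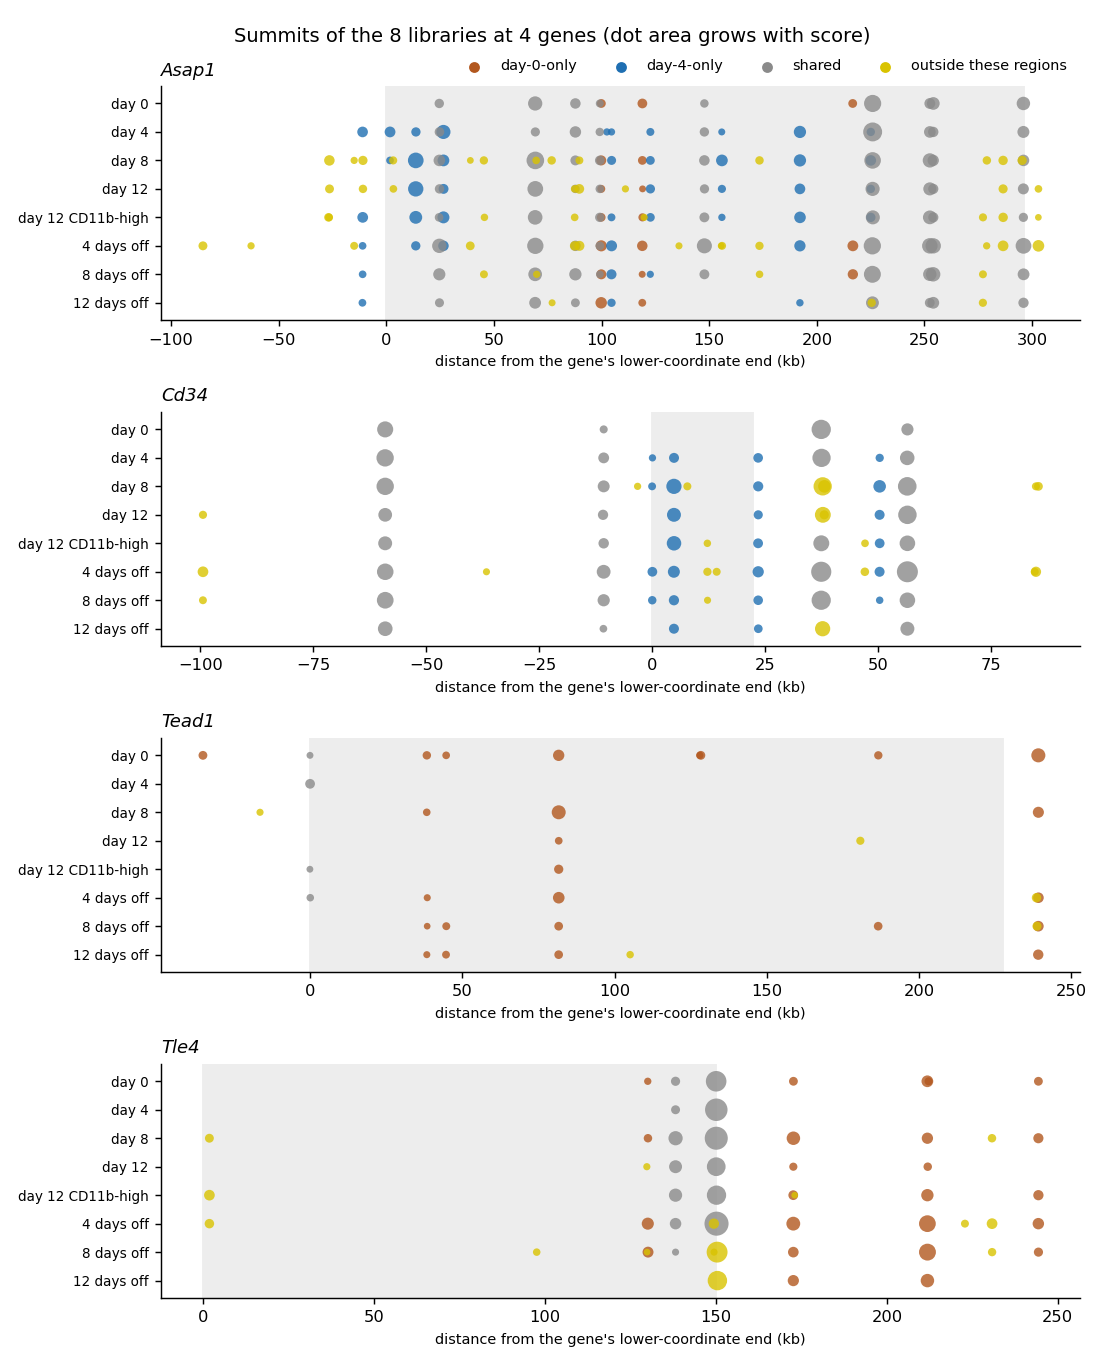
Summits of each library (rows) at Asap1, Cd34, Tead1 and Tle4 against distance from the gene's lower-coordinate end (x axis, kb; grey band, gene); colour is the class of the region, yellow marks summits outside the regions of day 0 and day 4, and dot area grows with score within a list. Day-4-only summits at Asap1 and Cd34 recur in other libraries, and at Tle4 and Tead1 several day-0-only summits recur on Dox as well as off it.

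The strongest day-4-only regions without a day-0 summit within 1 kb were nearly all open later on Dox. The first lay 50018 bp from Gcnt1, a glycosyltransferase of mucin-type glycans, at chr19:17275973-17276273, and scored 50.6 at day 4, 52.4 at day 8, 33.7 at day 12, 30.1 in CD11b-high cells but 4.09 at 4 days off. The next, inside Antxr2, an anthrax toxin receptor gene, scored 50.3, 52.1, 41.5, 37.7 and 20.01 in the same libraries and 10.54 at 8 days off. Neither was called at 12 days off. Of the 8 strongest, only that inside Eif4a1 was not called at day 8, and it had a day-0 summit 1118 bp away.

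The strongest day-0-only region, inside Lingo2 at chr4:36775126-36775426, scored 41.7 at day 0, and the nearest day-4 summit was 175282 bp away. It was called in all 6 other libraries, at 30.7 at day 8, 17.3 at day 12, 23.9 in CD11b-high cells, and 65.4, 44.3 and 31.2 off Dox. All but 1 of the 8 strongest day-0-only regions were called again at day 8. The exception, inside Esrrg, scored 29.1 at day 0 and between 4.26 and 7.08 in the 3 libraries off Dox, and was in no Dox list. How far these absences belong to the single day-4 library was not tested.

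Some regions open on both days differed in rank. Scores were ranked among the 26707 shared regions in each list, as percentiles, and the median absolute difference was 7.88 points. At day 4, 1524 regions ranked more than 25 points higher and 1571 more than 25 points lower. At 12 days off Dox, 72.8% (70.5 to 75.0) of the first and 87.3% (85.6 to 88.9) of the second were open, and at day 12 82.0% (80.0 to 83.9) and 75.7% (73.5 to 77.8). The largest rank difference upward was a region 35107 bp from Atp1b3, which scored 3.73 at day 0 but 62.1 at day 4, followed by 38.0 on day 8 and 25.8 on day 12. The largest downward was inside Ppm1h, a protein phosphatase gene, with 38.8 at day 0 and 3.16 at day 4, then 15.5 and 12.3 later on Dox and 49.4, 41.7 and 25.8 off it. At Irak3, a negative regulator of Toll-like receptor signalling, the scores were 28.7 and 4.02. The region at the start of Mtss2 scored 27.8 and 2.998.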

How the data were processed

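ATAC-seq libraries of AML246 cells were described from the deposited summit lists, 1 per group. Per the submitters' processing notes, Picard 2.14.0 and MACS2 were used and positions refer to mm10. The sources used here give no aligner, MACS2 version or read depth. The labels' extraction text also mentions ChIP, while the library preparation, title and design name ATAC-seq. The authors' deposited score was read as −log10 of a p or q value, because the lowest scores of the lists lay between 1.30 and 1.39, near a threshold of 0.05; which of these it is was not given. It was used to rank or filter within a list, and scores of different lists, set side by side, are not on one scale, since they move with depth.

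Day 0 had 36137 summits and day 4 had 35139, of which 96 and 121 on other contigs were left out. Intervals that touched were merged. Genes came from a RefSeq table of GRCm38.p6 (21883 protein-coding genes), by distance from a region's midpoint to the gene's span, and "outside the gene" is this distance. Of 296 listed genes, 295 matched. Exons, introns and UTRs were not analysed here, and motifs were searched in promoter windows only. The members, gene lists and comparisons were chosen with earlier results of these data known. Named were the 10 genes with the highest and the 10 with the lowest net, up to 4 members of each list with the largest net in either direction, Spi1, Itgam, Kit, Csf1r, Cebpa, Myb, Myc, Gata2 and Irf8, the 8 strongest exclusive regions of each class with no summit of the other list within 1 kb, the 5 largest rank differences each way, and the 3 longest clusters of each class. Some of them are given only as counts. Other genes were named after their values were seen. Alternatives were equal numbers of summits, other extensions (75 and 500 bp), a score of at least 10, a gene limit of 20 kb, and no summit of the other list within 1 kb. The scripts were tested on simulated data. Python 3.11.15 with numpy 2.4.6, pandas 2.3.3 and scipy 1.17.1 was used.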

Additional observations from a re-analysis of the deposited data

How the results depend on the processing

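The day-0-only, day-4-only and shared counts were 4012, 4521 and 16310 at a score of at least 10, 4094, 4092 and 15892 with the top 20000 summits, and 1487, 1487 and 8512 with the top 10000. The share of day-0-only regions within 1 kb of a gene end was 17.5% at a score of at least 10, 17.8% and 35.0% with the top 20000 and 10000 summits, 17.5% and 8.39% with extensions of 75 and 500 bp, and 8.64% with no day-4 summit within 1 kb. For day-4-only regions these shares were 15.6%, 16.2%, 39.5%, 15.3%, 5.56% and 5.78%. The difference between day-4-only and day-0-only regions in the share open was, in percentage points, 16.9 at day 8, and 15.2 with equal numbers, 7.15 with the top 20000, -0.403 with the top 10000, 7.66 at a score of at least 10, 12.4 and 19.3 with extensions of 75 and 500 bp, and 18.4 with no other summit within 1 kb. At day 12 it was 18.6, and 10.9, -0.605, 11.5, 13.1, 22.6 and 21.5 under the settings after equal numbers, and in CD11b-high cells 18.6, and 11.4, 1.34, 11.9, 13.9, 22.8 and 21.2. At 4 days off it was -10.1, and -5.48, -4.77, -5.62 and -7.16 with the top 20000, the top 10000, a score of at least 10 and 75 bp. At 8 days off it was -20.5, and -11.1, -4.84, -11.6, -14.5 and -23.5 with these and 500 bp, and at 12 days off -19.1, and -8.34, -13.1 and -21.9 with the top 10000, 75 bp and 500 bp. The off-Dox differences were below 0 under every setting tried. The share of day-4-only windows with the PU.1 letters was 13.6% with no day-0 summit within 1 kb, a setting chosen after seeing the data. The number of lists with more day-4-only regions lay between 10 and 12. At a score of at least 10 the net changed sign for erythroid (1), stem and progenitor (-1), interferon response (2) and housekeeping genes (3), and for stem and progenitor genes also with no other summit within 1 kb (-2). With genes up to 20 kb away the nets of myeloid transcription factors and inflammatory genes were 8 and 4, in place of 15 and 10, those of eosinophil, stem, oxidase and non-blood genes 2, 3, 2 and 1, in place of 4, 1, 0 and 0. Apart from the top 10000 sets, in which few exclusive regions lacked a summit of the other full list, the cause of these shifts was not tested. No paired analysis was possible because each group held 1 library. A weak call missing from 1 list cannot be told apart from limited depth, and accessibility does not measure the RNA or protein of Spi1.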

Other observations

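Chromosome X, which carried 845 regions, had the lowest share of day-4-only regions; chromosome Y, with 1 of 8 regions, could not be told apart from it. Day-4-only regions were 11.2% (9.19 to 13.6) and day-0-only regions 24.5% (21.6 to 27.5) of them, 95 against 207, while over all chromosomes the shares were 18.3% and 20.6%. Equal numbers of summits gave 97 and 195, and regions with no summit of the other list within 1 kb 75 and 164. Chromosome X held 2.10% of day-0 summits and 1.84% of day-4 summits, and 1.82% to 2.24% in the other 6 lists, so the day-4 share is among the lowest but not apart from them. On chromosome 1 the order was the opposite, with 627 day-4-only (21.1%, 19.7 to 22.6) and 603 day-0-only regions (20.3%, 18.9 to 21.8) of 2969. These intervals overlap. Equal numbers of summits gave 638 and 576 there, and the same order on chromosomes 5, 6, 7, 10, 11, 13, 15 and 17. The gap was widest on chromosomes 10 (619 and 534) and 11 (628 and 554). The remaining chromosomes had equal counts or more day-0-only regions. In the full lists, by contrast, chromosome 1 alone had more day-4-only regions. There chromosome 10 had 594 day-4-only and 625 day-0-only regions, and chromosome 11 had 592 and 603. Equal numbers left out day-0 summits only.

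Exclusive regions of a class did not gather along the chromosomes. The next region within 20 kb after a day-4-only region was day-4-only in 18.1% (17.01 to 19.3) of 4611 cases, compared with 18.8% of all next regions, and after a day-0-only region it was day-0-only in 19.3% of 4822 cases, compared with 19.2%. The opposite class came next somewhat more often than among all next regions. A day-4-only region followed a day-0-only region in 20.7% (19.5 to 21.8) of 4822 cases, compared with 18.8%. A day-0-only region followed a day-4-only region in 21.6% (20.5 to 22.9) of 4611 cases, compared with 19.2%. The cause was not tested. The longest runs with gaps under 20 kb were short. A run of 4 day-4-only regions spanned 28.9 kb at Cd300lf and Rab37 on chromosome 11, with 3 of the 4 open in each of the 3 later Dox libraries. Another 4 spanned 24.3 kb at Furin, a proprotein convertase gene, on chromosome 7, and 5 weak calls spanned 34.1 kb at A530032D15Rik on chromosome 1, of which 1 was open at day 8 and none in the other 5 libraries. For day-0-only regions the runs were 5 regions at Mamdc2, 4 at Krt83, Krt86 and Krt88, and 4 at Msrb3.

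Of 1005 RefSeq miRNA hairpins, 132 had a region within 1 kb, 15 of them (11.4%) a day-4-only and 27 (20.5%) a day-0-only region, beside 18.3% and 20.6% of all regions, although a hairpin can have several regions. The hairpins named here were picked after their values were seen, as miRNAs known in blood cells. Mir142, which is specific to blood cells, had a day-4-only region 37 bp from its hairpin on chromosome 11, with a day-4 score of 10.1. It scored 4.98 and 4.89 at day 8 and day 12 and 4.05 at 4 days off, with a day-0 summit 1181 bp away. Mir130a, on chromosome 2, had a day-4-only region 40 bp away with scores of 6.19 at day 4 and 5.37 at day 8 only. Mir199b, also on chromosome 2, had a day-0-only region 100 bp away with a score of 2.32, and 7.58, 6.11 and 5.67 at 4, 8 and 12 days off, and no call on Dox. The mature forms from RefSeq, with the seed (bases 2 to 8) in capitals, show 4 different seeds, so these hairpins share none.
miR-142a-5p: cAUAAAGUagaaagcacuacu
miR-142a-3p: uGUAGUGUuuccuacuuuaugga
miR-130a-3p: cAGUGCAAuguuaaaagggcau
miR-199b-3p: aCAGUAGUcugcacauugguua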
